A study of Mus musculus with 10 samples.

Results

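Histone H3 lysine 27 acetylation (H3K27ac), a mark of active promoters and enhancers, was described at Dnmt1 and at the 3 members of the Tet family, Tet1, Tet2 and Tet3. The regions were chosen by position: every region of the deposited table that overlapped 1 of 4 windows in mm9 coordinates by at least 1 bp. The windows ran on chromosome 9 from 20705 to 20765 kb for Dnmt1, on chromosome 10 from 62260 to 62350 kb for Tet1, on chromosome 3 from 133120 to 133215 kb for Tet2 and on chromosome 6 from 83305 to 83415 kb for Tet3. They held 24 of 50898 regions, of which 4 belonged to the class prom (read here as promoter), 18 to the class enh (read here as enhancer) and 2 to the class uaProm, a label left unexplained in the sources used here. Dnmt1 had 1 region, Tet1 6, Tet2 4 and Tet3 13. Of the 24 regions, 23 lay wholly inside a window, and the uaProm region of Tet1 crossed the upper edge. No mm9 annotation was used here, so the assignment of regions to genes rests on the windows, and whether a region is exonic, intronic or upstream of a gene was not analysed here.

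The tissue was cerebral cortex from C57BL/6J mice aged 8 weeks, immunoprecipitated with the antibody Abcam ab4729. A group of 5 mice carried 1 knockout allele of Dnmt3a, the gene of a de novo DNA methyltransferase (Het), and 5 wild-type mice (WT) were their littermates. The labels name no Cre driver or promoter for the knockout allele, and 1 Het library, replicate 5, has cKO in its description although its genotype label says heterozygous. Each of 5 litters gave 1 Het and 1 WT mouse, with litters 1, 3 and 5 male and litters 2 and 4 female, and libraries are numbered here by litter. Values are pseudo-counts, read counts that the authors adjusted to a common library size, so they measure a region's share of the signal and not an absolute amount of acetylation. In whole cortex, more acetylated alleles and a larger share of one cell type cannot be told apart.

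Dnmt1 is the maintenance DNA methyltransferase: it copies methylation onto the new strand after replication and is also expressed in neurons that no longer divide. The TET enzymes are dioxygenases that oxidise 5-methylcytosine to 5-hydroxymethylcytosine and further products, which can be removed by base excision repair. 5-hydroxymethylcytosine is abundant in the brain, and Dnmt3a, of which the Het mice lack 1 allele, sets much of the methylation that neurons acquire after birth. The 4 genes thus encode enzymes that maintain or oxidise DNA methylation. How far they act on the methylation that Dnmt3a sets was not analysed here.

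Promoter sequences are shown because the genes start in very different CpG contexts, CpG being the dinucleotide that these enzymes mainly act on. They come from RefSeq (GRCm38.p6), cover 250 bases before to 50 after an annotated start, are written 5′ to 3′ on the minus strand, from which all 4 genes are read, and have each CpG in capitals. All 4 genes matched by symbol, Tet1, Tet2 and Tet3 with 1 entry each and Dnmt1 with 3, of which the entries with the most and the fewest CpG are printed.

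Dnmt1 start with the most CpG, chr9:20952574-20952873: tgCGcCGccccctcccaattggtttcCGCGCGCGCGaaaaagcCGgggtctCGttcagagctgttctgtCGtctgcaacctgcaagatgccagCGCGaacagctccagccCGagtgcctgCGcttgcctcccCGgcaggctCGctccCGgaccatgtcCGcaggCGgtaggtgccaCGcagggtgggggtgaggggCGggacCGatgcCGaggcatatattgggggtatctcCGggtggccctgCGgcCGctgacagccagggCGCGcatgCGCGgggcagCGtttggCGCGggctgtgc

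Dnmt1 uppermost start, chr9:20959839-20960138: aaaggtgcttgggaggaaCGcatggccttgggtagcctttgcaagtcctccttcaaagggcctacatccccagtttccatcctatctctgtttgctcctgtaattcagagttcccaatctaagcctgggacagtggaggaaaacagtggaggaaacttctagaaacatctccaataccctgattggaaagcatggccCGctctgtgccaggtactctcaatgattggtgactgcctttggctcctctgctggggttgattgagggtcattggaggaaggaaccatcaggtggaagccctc

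Tet1, chr10:62887275-62887574: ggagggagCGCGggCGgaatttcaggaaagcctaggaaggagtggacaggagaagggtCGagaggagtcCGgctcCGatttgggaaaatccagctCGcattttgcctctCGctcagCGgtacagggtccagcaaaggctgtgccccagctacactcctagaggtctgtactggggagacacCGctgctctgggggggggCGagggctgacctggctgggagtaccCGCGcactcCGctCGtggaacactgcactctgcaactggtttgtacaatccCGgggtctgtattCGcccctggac

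Tet2, chr3:133544341-133544640: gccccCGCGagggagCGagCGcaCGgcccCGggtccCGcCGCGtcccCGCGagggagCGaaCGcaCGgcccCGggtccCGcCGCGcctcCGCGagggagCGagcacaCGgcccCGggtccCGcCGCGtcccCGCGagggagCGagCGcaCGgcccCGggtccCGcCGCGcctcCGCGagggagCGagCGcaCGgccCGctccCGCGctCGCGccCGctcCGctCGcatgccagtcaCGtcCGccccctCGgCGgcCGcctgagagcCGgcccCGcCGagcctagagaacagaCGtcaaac

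Tet3, chr6:83441629-83441928: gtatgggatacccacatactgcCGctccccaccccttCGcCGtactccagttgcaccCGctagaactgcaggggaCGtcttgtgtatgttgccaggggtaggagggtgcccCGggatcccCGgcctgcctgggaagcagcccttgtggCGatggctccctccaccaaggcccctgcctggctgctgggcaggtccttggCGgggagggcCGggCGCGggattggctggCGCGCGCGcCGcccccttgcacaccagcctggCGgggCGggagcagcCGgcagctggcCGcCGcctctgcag

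The Tet2 entry held 57 CpG in 300 bases with a GC content of 81.3%, at percentile 99.9 for CpG among 32851 promoter entries, whose median was 7 CpG and 52.7% GC. The Dnmt1 entry with the most CpG held 33 (GC 69.7%), Tet3 held 22 (GC 71.3%) and Tet1 17 (GC 61.7%). The uppermost Dnmt1 start held only 2 CpG (GC 51.3%), and the third Dnmt1 entry, which is not printed, held 12. Both Dnmt1 entries near the lower starts shared the palindrome GCGCATGCGC, the longest stretch equal to its own reverse complement found in more than 1 entry of a gene and known as a binding motif of NRF1, which 0.971% of all entries hold on either strand. GGGCGG, a GC box of the kind bound by SP1, occurred on either strand in 4 of 6 entries, at least 1 for each of the 4 genes, against 35.7% of all entries. CCAAT, on either strand, occurred in 3 of 6 entries, 2 of Dnmt1 and that of Tet3, against 37.4%. The palindrome came from a search of these same entries, and only Dnmt1, with more than 1 entry, could yield it. The other 2 motifs were chosen after the sequences were seen. All describe letters only, and the shares over all entries are background and no test. None of the motifs contains another, and CCAAT can overlap its own complement. Since the Dnmt1 starts lie 6.909 and 7.265 kb below the uppermost one, the single promoter region of Dnmt1, 2662 bp wide, cannot hold all 3. Because the builds differ, no entry was matched to a region. The promoter region of a gene means here the prom region in its window, which need not hold the printed start. At Tet1, whether that start lies in the prom region or in the uaProm region 21.4 kb above it was not tested.

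Recovered reads in regions numbered 2771534 to 8453140 per library, and the 24 regions held 6 to 945 reads each per library. Libraries differed in how much of their signal the strongest 5% of regions held, from 28.2% in Het replicate 1 to 33.6% in WT replicate 4. Het replicate 3 (33.2%) and Het replicate 4 (32.4%) were the next highest. WT libraries averaged 31.2 ± 1.41% and Het libraries 30.9 ± 2.05% (SD, n = 5 each).

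The promoter region of Dnmt1 at chr9:20755599-20758261 was the only region in its window. It had 117, 110, 112, 116 and 112 pseudo-counts in WT replicates 1 to 5, and 107, 118, 98.8, 124 and 126 in Het replicates 1 to 5. The WT libraries lay within a narrow band, and the Het libraries fell on both sides of it.

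The promoter region of Tet1 at chr10:62326056-62330299 had 206, 194, 212, 248 and 204 pseudo-counts in WT replicates 1 to 5, and 187, 220, 221, 203 and 219 in Het replicates 1 to 5. WT replicate 4 was the highest library and Het replicate 1 the lowest, and the ranges of the genotypes overlapped. The promoter region of Tet2 at chr3:133205348-133209029 had 212, 211, 215, 264 and 214 in WT, and 197, 265, 242, 241 and 191 in Het. Its high values came from WT replicate 4 and from Het replicates 2, 3 and 4.

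Tet3, the member of the family known for oxidising the paternal genome in the zygote, had the widest and strongest promoter region of the 4, 14605 bp at chr6:83381308-83395913. It had 599, 569, 610, 747 and 556 pseudo-counts in WT replicates 1 to 5, and 535, 627, 685, 656 and 596 in Het replicates 1 to 5. WT replicate 4 again stood highest and Het replicate 1 lowest.

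**Figure D1:**
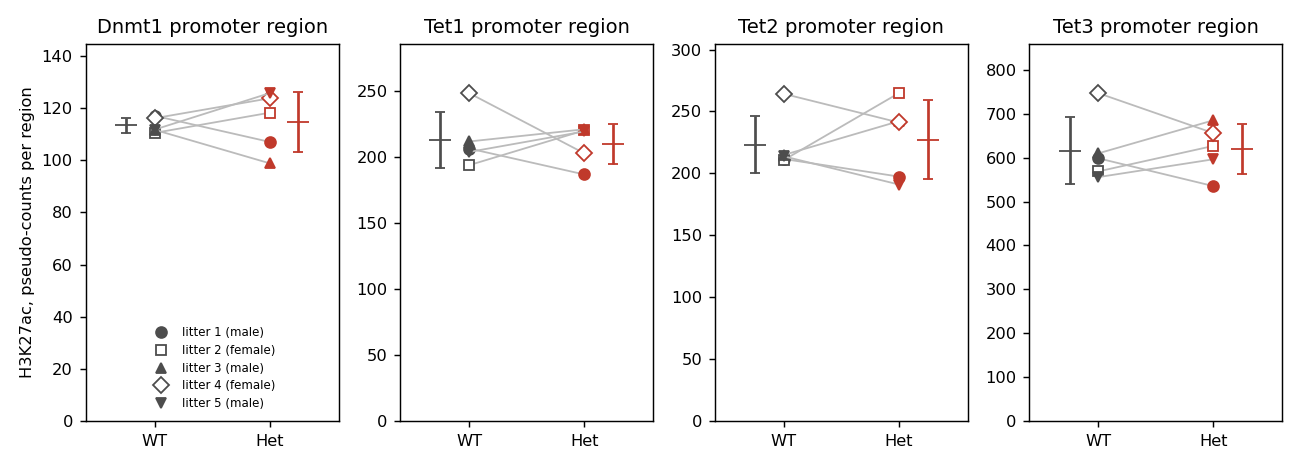
H3K27ac pseudo-counts (vertical axes, from 0) in the promoter regions of Dnmt1, Tet1, Tet2 and Tet3 for WT and Het mice, 1 point per library, with lines joining littermates and bars giving the mean ± SD (n = 5). Lines rise in some litters and fall in others in each panel, and the WT mouse of litter 4 is the highest WT library for Tet1, Tet2 and Tet3.

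Scaled to their length, the 4 promoter regions came in another order. Over the 10 libraries, Tet2 had 61.2 ± 7.13 pseudo-counts per kb, Tet1 49.8 ± 4.06, Dnmt1 42.9 ± 2.98 and Tet3 42.3 ± 4.38 (mean ± SD, n = 10). Tet2 lay above Tet1 in 10 of 10 libraries, and Tet1 above both Dnmt1 and Tet3 in 10 of 10. Dnmt1 and Tet3 differed by less than their spread, with Dnmt1 the higher in 8 of 10. Among the 16529 promoter regions, whose median was 31.2 pseudo-counts per kb, the levels per kb stood at percentiles 92.2 for Tet2, 82.7 for Tet1, 72.7 for Dnmt1 and 71.8 for Tet3. The Tet3 region reached percentile 95.7 of the unscaled level and percentile 94.2 of width, against percentile 71.8 per kb. Dnmt1 stood near the middle of its class in unscaled level, at percentile 50.9.

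The 2 uaProm regions differed in strength. The Tet3 one, chr6:83403164-83407674, lay 16.8 kb above the centre of the Tet3 promoter region and had 40.6 pseudo-counts per kb, close to the promoter region's density and at percentile 82.8 of its class. The Tet1 one, chr10:62348974-62350209, lay 21.4 kb above the centre of the Tet1 promoter region and had 14.6 per kb, at percentile 1.57 of its class. It held 13.2 to 26.9 pseudo-counts per library, among the weakest of the 24 regions.

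Enhancer regions were distributed unevenly: 11 in the Tet3 window, 4 in the Tet1 window, 3 in the Tet2 window and 0 in the Dnmt1 window. These counts depend on the windows, which run from 60 kb for Dnmt1 to 110 kb for Tet3. An enhancer region lies 10.6 kb above the Dnmt1 window. The numbering of the enh class skips 1 number inside the run of each of Tet2 and Tet3, and those regions were not analysed here. All 18 had between 13.0 and 23.0 pseudo-counts per kb, below each of the 4 promoter regions; the median of all enh regions was 17.8 per kb, and the 18 ran from percentile 4.55 to 85.7 of their class. Their unscaled means ran from 14.7 to 230.2 with a median of 31.0. The strongest was the Tet3 enhancer region chr6:83357890-83367966, 10076 bp wide and centred 25.7 kb below the promoter region's centre, at percentile 95.6 of its class in level and 95.5 in width. The strongest at Tet1, chr10:62312980-62315061, had WT and Het means of 48.0 ± 10.0 and 47.7 ± 7.77 pseudo-counts (SD, n = 5 each). The strongest at Tet2, chr3:133171906-133173809, had means of 32.2 ± 2.81 and 33.3 ± 7.08.

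**Figure D2:**
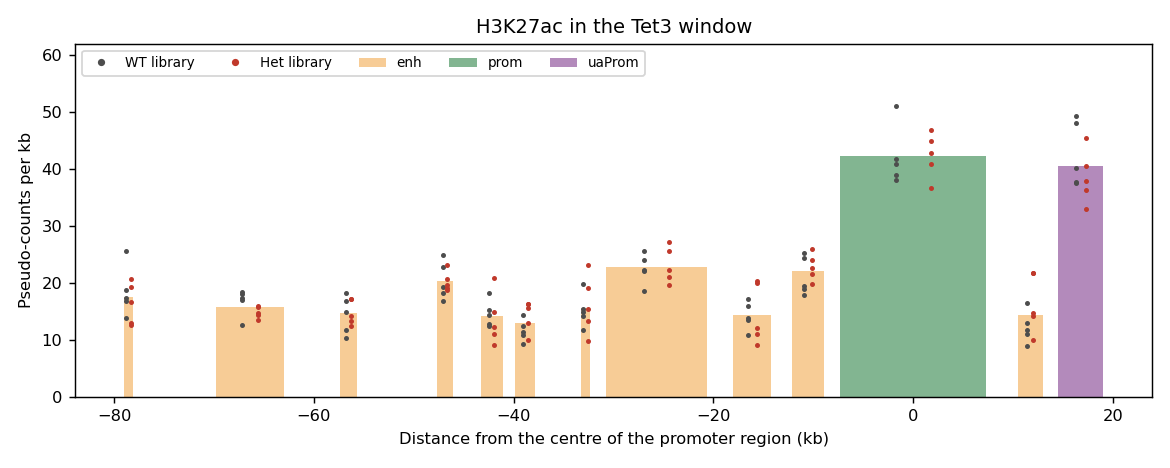
Pseudo-counts per kb (vertical axis) of the 13 regions in the Tet3 window against distance from the centre of the promoter region (horizontal axis, kb), with bars for the mean of 10 libraries drawn to the region's width and points for single WT and Het libraries. The promoter and the uaProm region stand at 42.3 and 40.6 per kb, and the 11 enhancer regions between 13.0 and 22.8.

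The first comparison asked whether losing 1 allele of Dnmt3a went with a different H3K27ac level at the genes that maintain and remove DNA methylation. None of the 24 regions passed the limma test between genotypes (0 of 24, at a Benjamini-Hochberg adjusted p under 0.05 over all 50898 regions), where 0.00196% of all regions passed. None had an unadjusted p under 0.05 either, against 2.1% of all regions, and limma-voom on the recovered reads also called 0. In no region did the WT and Het libraries separate, which 0.375% of all regions did. None was higher in Het in 5 of 5 litters (3.53% of all regions) or lower in 5 of 5 (2.46%).

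The Dnmt1 promoter region averaged 113 ± 2.96 pseudo-counts over WT mice and 115 ± 11.5 over Het mice (SD, n = 5 each), a log2 fold change of 0.011 (SE 0.11, 95% interval -0.21 to 0.23). Its sign turned with other scalings, as it did for Tet3. Tet1 had 213 ± 20.9 and 210 ± 15.0, a log2 fold change of -0.017 (SE 0.099, interval -0.22 to 0.18). Tet2 had 223 ± 23.1 and 227 ± 31.7, a log2 fold change of 0.021 (SE 0.10, interval -0.18 to 0.22). Tet3 had 616 ± 76.5 and 620 ± 57.8, a log2 fold change of 0.012 (SE 0.093, interval -0.18 to 0.20). The adjusted p by limma was 1.00 for each of the 4 promoter regions, and their intervals all lay inside 1.5-fold either way. Het was higher than the WT littermate in 3 of 5 litters for Dnmt1, Tet1 and Tet3 and in 2 of 5 for Tet2.

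Signal summed over each window was also compared. The Tet1 window summed to 365 ± 16.7 pseudo-counts for WT and 361 ± 14.8 for Het over 6 regions covering 12028 bp. The Tet2 window summed to 299 ± 20.8 and 304 ± 31.6 over 4 regions covering 8120 bp. The Tet3 window summed to 1443 ± 44.3 and 1442 ± 61.6 over 13 regions covering 54697 bp (SD, n = 5 each throughout). The promoter region took 58.2 ± 3.93% of the Tet1 sum in WT and 58.1 ± 4.06% in Het, 74.6 ± 3.27% and 74.5 ± 4.16% of the Tet2 sum, and 42.7 ± 4.77% and 43.1 ± 5.10% of the Tet3 sum. All these differences were smaller than the spread between mice.

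The region with the smallest genotype p of the 24 was the Tet3 enhancer region chr6:83399136-83401577, 11.7 kb above the promoter region's centre, between it and the uaProm region. It had 40.0, 31.5, 26.9, 21.8 and 28.8 pseudo-counts in WT replicates 1 to 5, and 53.1, 36.0, 24.3, 34.5 and 53.0 in Het replicates 1 to 5. Het was higher in 4 of 5 litters, with the exception of litter 3, and the ranges overlapped. WT mice averaged 29.8 ± 6.72 and Het mice 40.2 ± 12.6 (SD, n = 5 each), a log2 fold change of 0.39 (SE 0.20, 95% interval -0.026 to 0.80). By limma the unadjusted p was 0.0656 and the adjusted p 1.00. Leaving out single libraries gave log2 fold changes from 0.29 (without Het replicate 1) to 0.59 (without Het replicate 3). With the litter as a block, the unadjusted p was 0.0257 and the adjusted p 1.00; this was the 1 of 24 regions with an unadjusted p under 0.05 in that fit, against 4.63% of all regions. The block called 0 of the 24 regions and 0.00589% of all regions. The authors' deposited table lists a log2 fold change of 0.43, a p-value of 0.0651 and an FDR of 1.00 for it. Its highest libraries, Het replicates 1 and 5, were also those with the least signal in the strongest 5% of regions (28.2% and 29.5%). With cyclic loess, which evens out differences that follow signal strength, the log2 fold change was 0.35. What part the concentration of signal has in this difference was not tested.

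The 3 regions with the next smallest p were also at Tet3, and 2 of them had lower values in Het. The Tet3 uaProm region had 217, 171, 182, 169 and 223 pseudo-counts in WT replicates 1 to 5, and 171, 183, 149, 164 and 205 in Het replicates 1 to 5. It was lower in Het in every litter but litter 2, with means of 192 ± 25.9 and 174 ± 21.2 and a log2 fold change of -0.14 (SE 0.11, limma unadjusted p 0.197, adjusted p 1.00). When single libraries were left out, this value ran from -0.19 to -0.064, the latter without Het replicate 3. The Tet3 enhancer region chr6:83318796-83325676, 66.4 kb below the promoter region's centre, averaged 115 ± 16.3 over WT and 102 ± 6.87 over Het mice, a log2 fold change of -0.15 (SE 0.12, limma unadjusted p 0.202, adjusted p 1.00), which was -0.25 without WT replicate 3. The Tet3 enhancer region chr6:83348783-83350755, 38.8 kb below the centre, had 24.4, 18.4, 21.5, 28.4 and 22.6 pseudo-counts in WT replicates 1 to 5, and 25.5, 32.3, 19.7, 30.9 and 32.2 in Het replicates 1 to 5. Het was higher in 4 of 5 litters, again with the exception of litter 3, and the ranges overlapped. Its log2 fold change was 0.27 (SE 0.21, limma unadjusted p 0.210, adjusted p 1.00), and 0.15 without WT replicate 2. In the authors' deposited table its log2 fold change was 0.30 and its p-value 0.173, the second smallest of the 24. Differences within the Tet3 window thus had both signs, and none passed the test.

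At Tet1, the smallest genotype p belonged to the enhancer region chr10:62309260-62310986, with WT and Het means of 36.7 ± 1.41 and 34.9 ± 3.86 pseudo-counts (log2 fold change -0.075, SE 0.17, limma unadjusted p 0.664, adjusted p 1.00). The Tet1 uaProm region had 18.1 ± 5.93 and 18.0 ± 3.63, a log2 fold change of 0.023 (SE 0.25). At Tet2, the smallest p belonged to the enhancer region chr3:133179670-133181354, with 26.8 ± 10.2 and 27.8 ± 4.10 (log2 fold change 0.11, SE 0.22, limma unadjusted p 0.623, adjusted p 1.00). Its Het minus WT log2 differences by litter were 0.96, 0.049, -0.99, 0.48 and 0.059, so litters 1 and 3 moved in opposite directions by a similar amount. Its spread within litters stood at percentile 97.7 of all regions.

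Over all 24 regions, log2 fold changes ran from -0.16 to 0.39 with a median of 0.017, against 0.0092 over all regions. A value above 0 was found in 16 of 24 regions (66.7%, against 53% of all regions), a count that fell to 12 with TMM or median-of-ratios factors and to 9 with cyclic loess. In 20 of 24 regions the 95% interval stayed inside 1.5-fold (83.3%, against 79.6% of all regions). For the 4 others the interval did not exclude a 1.5-fold difference. Het exceeded WT in 1 of 5 litters in 2 regions, in 2 in 10, in 3 in 7 and in 4 in 5. In the authors' deposited table no region of the 24 had an FDR under 0.05, and the smallest p-value was 0.0651.

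**Figure D3:**
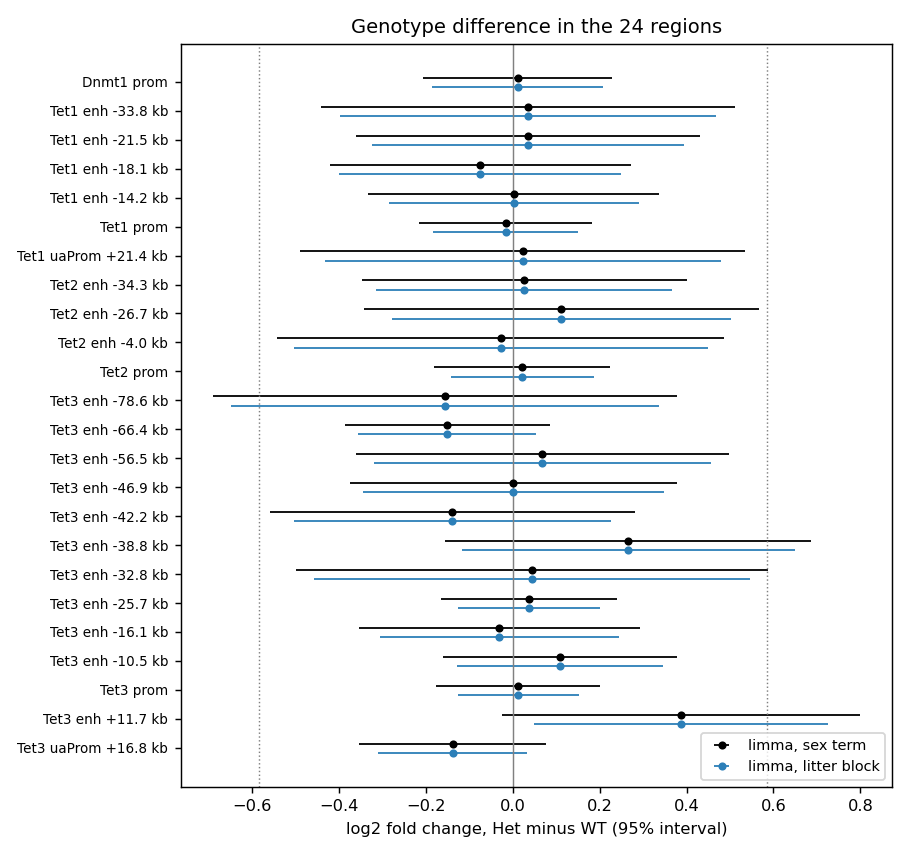
Log2 fold change, Het minus WT, with its 95% interval (horizontal axis) for the 24 regions, labelled by gene, class and distance from the promoter region's centre, from the limma fit with a sex term (black) and with the litter as a block (blue); dotted lines mark 1.5-fold either way. All black intervals include 0, and the blue interval of the Tet3 enhancer region 11.7 kb above the promoter region's centre does not.

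The littermate pairs show how the regions varied. At Dnmt1 the log2 differences Het minus WT were -0.13, 0.097, -0.17, 0.091 and 0.17 in litters 1 to 5. At Tet1 they were -0.14, 0.18, 0.061, -0.29 and 0.11. At Tet2 they were -0.10, 0.33, 0.17, -0.13 and -0.16. At Tet3 they were -0.16, 0.14, 0.17, -0.19 and 0.10. Tet1 and Tet3 had the same sign in each of the 5 litters, below 0 in litters 1 and 4 and above 0 in litters 2, 3 and 5. Tet2 shared that pattern except in litter 5, and Dnmt1 went the other way in litters 3 and 4. How many other regions have these signs was not counted. The signal held by the strongest 5% of regions was lower in Het in litters 1 and 4 and higher in litters 2 and 3. In litter 5 it was also lower in Het (29.5% against 30.5% in WT). Its part in the signs of the promoter regions was not tested.

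**Figure D4:**
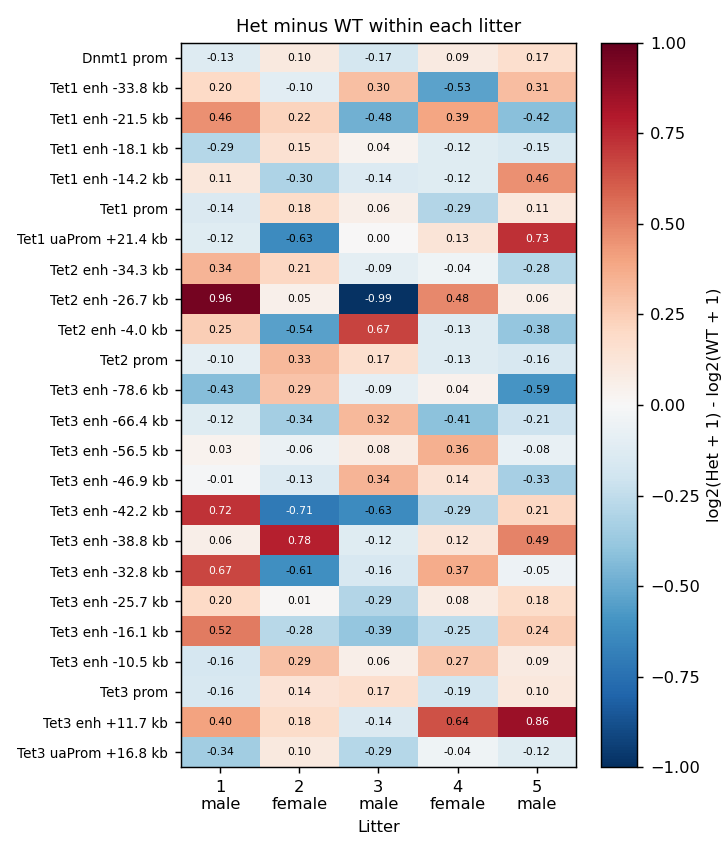
Het minus WT difference of log2(pseudo-count + 1) in each of the 5 litters (columns, with the sex of the litter) for the 24 regions (rows), in red where Het was higher and in blue where it was lower. No row has 1 colour throughout, and the 4 promoter rows stay between -0.29 and 0.33.

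Litter means varied less at the 4 promoter regions than at the median region of the table. Of all regions, 32614 were of the class enh, with a median level of 42.0 pseudo-counts. The 4 promoter regions were stronger, and no comparison with regions of like level was made. The SD of the 5 litter means of log2 values stood at percentile 4.53 of all regions for Tet1, 5.21 for Dnmt1, 23.6 for Tet3 and 27.7 for Tet2. The highest percentiles among the 24 belonged to 2 Tet3 enhancer regions, 90.8 for chr6:83370587-83374414 and 89.4 for chr6:83399136-83401577. The median of this SD was 0.17 over the 24 regions and 0.19 over all regions, with 9 of 24 above the latter. The SD within litters had a median of 0.21 against 0.19 over all regions, with 13 of 24 above it.

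At Tet3 the promoter region and the sum of the enhancer regions moved apart between libraries. The promoter region was highest in WT replicate 4, Het replicate 3 and Het replicate 4, the 3 libraries with the most signal in the strongest 5% of regions and in the same order. The 11 enhancer regions together had their lowest sums in these libraries, 564, 573 and 570 pseudo-counts, against 618 to 746 in the other 7. The ratio of the enhancer sum to the promoter region was 0.755, 0.837 and 0.870 in them and 0.986 to 1.37 in the others, highest in Het replicate 1. The uaProm region also had its lowest values in WT replicate 4, Het replicate 3 and Het replicate 4, with 169, 149 and 164 pseudo-counts. WT replicate 2 and Het replicate 1 were close to these, at 171 each, although Het replicate 1 had the least concentrated signal. Single enhancer regions did not all follow the sum. For example, chr6:83318796-83325676 had 124 in WT replicate 4, against a mean of 109 over all libraries. Both genotypes and both sexes were among the 3 libraries. The Tet3 promoter region is itself a strong region, at percentile 95.7 of its class, and all values are shares of the signal. Its order over libraries is therefore not independent of the concentration of signal. How many other regions have the same order was not counted, and what part the concentration has in these values was not tested.

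**Figure D5:**
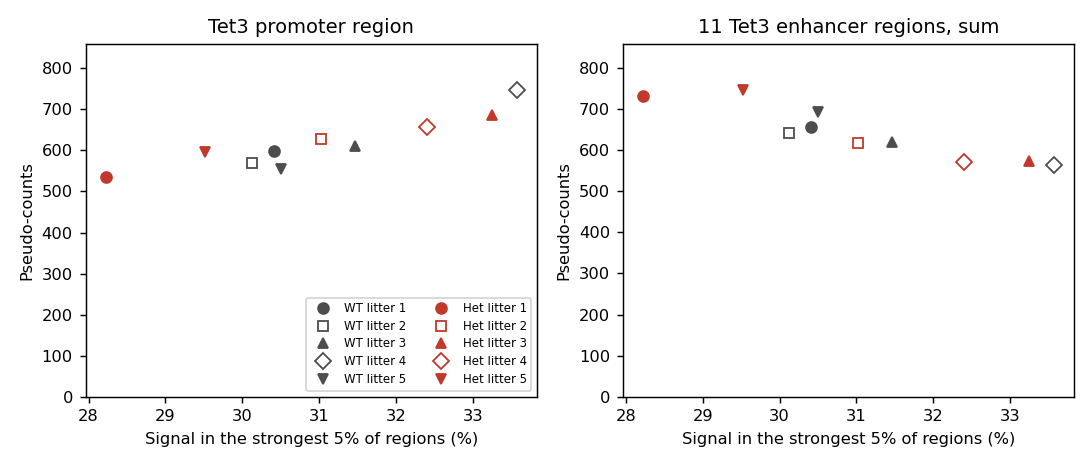
Pseudo-counts of the Tet3 promoter region (left) and of the 11 Tet3 enhancer regions summed (right) against the percentage of signal in the strongest 5% of regions (horizontal axes), 1 point per library. The 3 libraries above 32% have the highest promoter values (656 to 747) and the lowest enhancer sums (564 to 573). How many other strong regions have this order was not counted.

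The second comparison set males against females. Since each litter was of 1 sex, sex and litter cannot be told apart. The limma fit counted 6 male and 4 female mice as independent, although they came from 3 male and 2 female litters. Its p-values for sex do not allow for this. None of the 24 regions passed the limma test for sex (0 of 24, against 0.904% of all regions), and limma-voom also called 0. An unadjusted p under 0.05 was found for 4 of 24 (16.7%), against 13.2% of all regions; 3 were higher in males (8.96% of all regions) and 1 lower (4.25%). The 95% interval lay within 1.5-fold for 15 of 24 regions, against 69.8% of all regions. The ranges of the 6 males and 4 females overlapped in all 24 regions; they did not overlap in 3.15% of all regions.

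The smallest p belonged to the Tet3 enhancer region chr6:83370587-83374414, 16.1 kb below the promoter region's centre. Litter means were 65.0, 53.7 and 72.0 pseudo-counts in the male litters 1, 3 and 5, and 47.2 and 38.3 in the female litters 2 and 4. Single males ran from 46.4 to 78.2 and single females from 34.9 to 51.8, so the lowest male, Het replicate 3, lay inside the female range. Males had 63.6 ± 12.6 (SD, n = 6) and females 42.7 ± 6.95 (SD, n = 4), a log2 difference of 0.55 (SE 0.16, limma unadjusted p 0.00167, adjusted p 0.0851). Without WT replicate 2, a female, the log2 difference was 0.66 and the adjusted p 0.0438, and without Het replicate 3 they were 0.64 and 0.00749, so the call depended on single libraries. Calls over all 50898 regions also rose, from 460 with every library to 978 without WT replicate 2 and 3580 without Het replicate 3. The 2 highest libraries in this region, Het replicates 1 and 5, were those with the least concentrated signal. With cyclic loess the log2 difference was 0.50 (limma adjusted p 0.0705). What part the concentration of signal has in this sex difference was not tested.

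The 3 other regions with an unadjusted p under 0.05 lay further from the threshold. The Tet3 enhancer region chr6:83357890-83367966 had 245 ± 23.4 in males and 208 ± 18.4 in females (log2 difference 0.23, limma adjusted p 0.304). The Tet1 enhancer region chr10:62305850-62307517 had 34.3 ± 6.14 and 25.0 ± 4.28 (log2 difference 0.44, limma adjusted p 0.326). The Tet2 promoter region had 212 ± 17.7 and 245 ± 25.5 (log2 difference -0.21, limma adjusted p 0.371). The log2 differences of the other promoter regions were -0.067 at Dnmt1, -0.051 at Tet1 and -0.12 at Tet3, with limma adjusted p-values of 0.865, 0.894 and 0.646. WT replicate 4, a female with the most concentrated signal, had the highest value at Tet1 and Tet3; without it the Tet1 difference was 0.025 and the Tet3 difference -0.037.

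The third comparison asked whether the genotype difference itself differed between the sexes. None of the 24 regions passed the limma interaction test (0 of 24, against 0% of all regions), none had an unadjusted p under 0.05 (1.36% of all regions), and limma-voom and the litter block also called 0. The smallest p, 0.117 (adjusted p 1.00), belonged to the Tet3 enhancer region chr6:83318796-83325676, whose mean Het minus WT log2 difference was 0.00036 in the 3 male litters and -0.38 in the 2 female litters, an interaction (male minus female) of 0.38 (SE 0.24). The 95% interval of the interaction lay inside 1.5-fold in 4 of 24 regions, against 18.8% of all regions, so a 1.5-fold difference between the sexes could not be bounded for the other 20. The Tet3 enhancer region with the smallest genotype p had a mean Het minus WT log2 difference of 0.37 in male litters and 0.41 in female litters.

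Regions just outside the windows were set beside the 24 as a check of the edges, with no test. The closest was a promoter region 1.357 kb below the Dnmt1 window, chr9:20701955-20703643, where WT mice averaged 49.8 ± 7.10 pseudo-counts and Het mice 61.6 ± 14.0 (SD, n = 5 each). A promoter region 1.553 kb below the Tet3 window, chr6:83301907-83303447, had 29.9 ± 5.80 and 28.0 ± 4.34. The nearest region above the Dnmt1 window was an enhancer region 10.6 kb away, chr9:20775635-20778515, with 102 ± 14.5 and 119 ± 17.6. Below the Tet1 window, the promoter region chr10:62253812-62256520, 3.48 kb away, had 152 ± 12.4 and 139 ± 11.7. Above the Tet1 window, the promoter region chr10:62382071-62384530, 32.1 kb away, had 138 ± 11.4 and 131 ± 6.72. The Tet2 window was the most isolated, with its neighbours, both enhancer regions, 77.0 kb below (chr3:133041664-133043035, 26.8 ± 3.21 and 22.5 ± 5.28) and 48.0 kb above (chr3:133263010-133264896, 38.8 ± 9.22 and 42.7 ± 11.1). Above the Tet3 window, 30.4 kb away, the promoter region chr6:83445392-83462022 was even wider than that of Tet3, at 16630 bp, with 570 ± 71.2 and 566 ± 70.8. In the RefSeq order of genes (GRCm38.p6), the protein-coding neighbours are Eif3g and S1pr2 for Dnmt1, Ccar1 and Slc25a16 for Tet1, Ppa2 and Cxxc4 for Tet2, and Bola3 and Dguok for Tet3.

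The regions whose profile over the 10 libraries was most like that of each promoter region were ranked by the root mean square difference of centred log2 values, as a description over libraries that share their depth and concentration of signal. For Tet3, the closest of 50874 outside regions was the promoter region chr8:107812041-107814740 (0.035), followed by the promoter region above its own window, chr6:83445392-83462022 (0.045), and chr12:66173366-66177818 (0.046). For Tet1, the closest were the enhancer region chr3:101595440-101602569 (0.044), the promoter region above its own window, chr10:62382071-62384530 (0.050), and the promoter region chr2:30520123-30535408 (0.051). For Tet1 and for Tet3, then, 1 of the 3 closest was the next promoter region on the same chromosome.

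For Tet2 the closest were the promoter regions chr1:165709193-165710774 (0.040), chr2:96157195-96164268 (0.047) and chr11:77575838-77581086 (0.049). For Dnmt1 they were the promoter region chr15:34166700-34169741 (0.037), the enhancer region chr6:86436379-86439016 (0.050) and the promoter region chrX:71637386-71639549 (0.054). Medians over all outside regions were 0.25 for Dnmt1, 0.27 for Tet1, 0.30 for Tet2 and 0.29 for Tet3. Among the 4 genes, Tet1 and Tet3 were the closest pair (0.073), with 62 outside regions closer to Tet1 and 157 closer to Tet3 than they are to each other. Tet2 lay 0.097 from Tet3 and 0.12 from Tet1. Dnmt1 was the farthest from the others, at 0.13 from Tet1, 0.16 from Tet3 and 0.19 from Tet2.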

How the data were processed

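The members and lists were chosen with earlier results of these data known. Bowtie2, edgeR and the build mm9 are named in the submitters' processing notes, with no versions. Peak calling and the making of region classes are not described there. The deposited table holds a signal per region and library, which the file headers call pseudo-counts, and, per the file headers, the authors' log2 fold change, log2 CPM, p-value and FDR. Because the adjustment uses a mean per genotype, the values already carry the genotype labels, and a uniform change of acetylation would not show. Whole reads were recovered by inverting it (99.999% of values within 0.1 read of whole) and served for depth and limma-voom only.

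A count test did not suit this unit, so limma 3.58.1 (R 4.3.3, trend and robust) was fitted to log2(value + 1) over all 50898 regions with sex and genotype as terms, Benjamini-Hochberg threshold 0.05. Fold changes on this scale understate changes of weak regions. The p-values of limma treat the mice as independent samples. The fits were tested on simulated data.

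The labels say that pairs are littermates, so replicate numbers pair the libraries. Deviations from group means correlated within litters 1 to 5 at 0.23, 0.12, 0.080, 0.36 and 0.42. Among libraries of the other genotype, neither library of litter 2 correlated best with its littermate, nor did Het replicate 3. The titles of litter 5 carry the numbers 726 (WT) and 728 (Het), whereas the other pairs share a number.

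Named with values were all prom and uaProm regions and, per gene, the strongest enhancer region and those with the smallest genotype and sex p; also regions at the window edges. Regions mentioned beyond these, such as those with the next smallest p, were picked after their values were seen. Alternatives were TMM and median-of-ratios factors, cyclic loess, pseudocounts of 0.5 and 5, a mean of at least 20, the litter block, no sex term, the authors' table and leaving out each library. Limma-voom was added after seeing the data. Other genes of DNA methylation and cortex markers needed an mm9 annotation and were not analysed here, so the tissue label was not checked. Figures used matplotlib 3.10.9.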

Additional observations from a re-analysis of the deposited data

Results flagged for a closer look

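Of 28 groups of values tested for 1 library far from the rest, 3 stood out, and chance gives about 1 in 20. WT replicate 4 had 264 pseudo-counts in the Tet2 promoter region, against 211 to 215 in the other WT libraries. The same library had 747 in the Tet3 promoter region, against 556 to 610 in the others, and in it the strongest 5% of regions took the most signal (33.6%). Het replicate 1 had 41.3 in the Tet1 enhancer region chr10:62305850-62307517, against 25.6 to 29.7 in the other Het libraries, and in it the strongest 5% took the least (28.2%). The part of this concentration of signal in the 3 values was not tested.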

How the results depend on the processing

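No alternative brought a genotype or interaction call to any of the 24 regions. With cyclic loess, 1 of 24 regions had an unadjusted genotype p under 0.05 by limma, against 1538 of all 50898. The same count of 1 was found without WT replicate 1, 2 or 3 or Het replicate 3, against 851 to 2770 of all regions. Limma-voom with the litter block also gave 1, against 2193. For sex the number called was 0 to 1 when single libraries were left out, and 0 in the other settings. The litter block changed no call. Of 175 genotype values of named regions in 11 settings that kept all libraries, 17 changed sign, all from differences near 0. At Dnmt1 the promoter region went to -0.010 with median-of-ratios and -0.0044 with TMM factors (0.060 to -0.034 without single libraries). At Tet3 the promoter region went to -0.0090 and -0.0031 (-0.043 to 0.078). At Tet1, chr10:62312980-62315061 went to -0.019, -0.014, -0.024 with loess, -0.050 with limma-voom, -0.030 with limma-voom and the litter block, and -0.030 in the authors' deposited table (-0.11 to 0.079). The Tet1 uaProm region went to -0.035 with loess, -0.083 with limma-voom and the block and -0.023 in the authors' deposited table (-0.086 to 0.21), and chr10:62305850-62307517 to -0.0040 with loess (-0.064 to 0.12). At Tet2, chr3:133171906-133173809 went to -0.010 with loess (-0.085 to 0.12). At Tet3, chr6:83370587-83374414 went to 0.034 with limma-voom and 0.032 in the authors' deposited table (-0.12 to 0.079). Leaving out single libraries also turned the sign of the Tet1 promoter region (-0.066 to 0.044), the Tet2 promoter region (-0.041 to 0.064), chr3:133179670-133181354 (-0.066 to 0.31) and chr6:83357890-83367966 (-0.0037 to 0.098).

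Of 97 sex values, 4 changed sign: chr10:62309260-62310986 at -0.028 with median-of-ratios, -0.019 with TMM and -0.070 with loess (-0.029 to 0.083 without single libraries), and the Tet1 uaProm region at -0.091 with loess (-0.098 to 0.28). Without single libraries the Tet1 promoter region ran from -0.11 to 0.025 and chr3:133179670-133181354 from -0.20 to 0.12. The cause was not tested for any of these. Over the whole table, genotype calls numbered 1, 3 with the block, 0 without the sex term and 0 to 1 without single libraries. Sex calls numbered 460, 94 with median-of-ratios, 203 with TMM and 849 with loess, and 14 (without WT replicate 4) to 3580 (without Het replicate 3) without single libraries. Few reads in weak regions, and 5 mice a group, limit the precision.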
